A study of Mus musculus with 30 samples.

Results

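Irf8, Batf3, Irf4, Id2 and Zbtb46 encode 5 transcription factors of the dendritic cell lineage, and their transcript levels were followed over the genotypes and treatments of a study of the mouse line DC3.2, which is of dendritic cell origin by its labels. Every library is labelled as DC3.2 cells. Titles begin with DC32R for the 24 replicated libraries and with Dc3.2 for the 6 others. The 5 genes were chosen by symbol from 31427 gene symbols, and each has a value in all 30 RNA sequencing libraries. The 24 replicated libraries form 12 groups of 2. They hold 4 genotypes, namely DKO (IRF1 and IRF2, 2 interferon regulatory factors, both targeted), IRF2KO, IRF1KO and WT. Each genotype was kept for 2 h with IFNγ at 2 ng/mL, with IFNα at 5000 U/mL or in media alone. In the titles of the replicated libraries IRF2KO reads IRF2sg, IRF1KO reads IRF1sg, the double mutant reads DKO and WT reads nosg, and no control for the targeting is labelled. A further 6 libraries, each without a replicate, come from IRF2KO and WT cells after 2 h with LPS, after 2 h with IFNα and at 0 h. The labels give no dose of LPS. No label says whether a genotype is 1 clone or a pool of cells, and each genotype may therefore be 1 line.

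Dendritic cells are grouped into conventional type 1 and type 2 cells (cDC1 and cDC2) and plasmacytoid cells, and these factors help to set those fates. IRF8 and BATF3 act together in cDC1 cells, where BATF3 joins a JUN protein and maintains Irf8 expression, while IRF4 serves cDC2 cells. ID2 blocks the DNA binding of E proteins such as TCF4, a factor of plasmacytoid cells, and ZBTB46 marks conventional dendritic cells. Irf8 is also a known interferon gamma target in macrophages, where the response to this cytokine acts through palindromic GAS elements.

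The 250 bases before the Irf8 start hold 2 matches to the GAS letters TTCNNNGAA, which are the same on both strands and are shown here in capitals because Irf8 was the factor with the large interferon response. The window is chr8:120736108-120736357 on the plus strand of GRCm38.p6, taken from RefSeq.
Irf8: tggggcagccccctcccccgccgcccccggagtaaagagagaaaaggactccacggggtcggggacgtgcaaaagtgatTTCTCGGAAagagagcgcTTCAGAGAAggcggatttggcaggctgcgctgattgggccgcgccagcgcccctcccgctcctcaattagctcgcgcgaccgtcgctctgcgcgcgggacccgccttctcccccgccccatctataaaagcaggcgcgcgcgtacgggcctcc
The matches run from 171 to 163 and from 153 to 145 bases upstream of the start. A second annotated Irf8 start, 2281 bases inside the gene, has no match in its own window. Of 32851 mouse promoter windows of the same length 7.02% hold a match. Batf3 has 1 match, ttccacgaa, at 239 to 231 bases upstream of a start that lies 567 bases inside the annotated gene. The windows of Irf4, Id2 and Zbtb46 have none, and that of Zbtb46 starts from a site 35038 bases inside its gene. An IRF repeat (GAAA, any 2 bases, GAAA) and a composite ETS and IRF element (GGAA, any 2 bases, GAAA), searched on both strands, are in 2.98% and 2.30% of all windows and in none of the members' windows. The AP-1 letters TGANTCA are in 6.75% of all windows and, among the members, in that of Zbtb46 (tgactca, 61 to 55 bases upstream). The short E-box letters CANNTG are in 66.2% of all windows and in those of Batf3, Zbtb46, Id2 and the second Irf8 start. A match is a string of letters only, and binding was not measured here.

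Values are TPM, which is scaled per transcript length and per library total, so levels can be set beside each other between genes, but the read depth behind them is not known. Libraries held 10911 to 11101 genes at 1 TPM or more, and replicates correlated across genes with r between 0.991 and 0.996 on the log2 scale (genes are not independent replicates). The dendritic cell label was set against marker lists. Of 9 general dendritic cell markers 6 averaged at least 1 TPM. Cd74, the invariant chain of MHC class II, lay between 3623 and 5097 TPM, and Itgax (CD11c) between 31.6 and 71.3 TPM. The dendritic progenitor receptor Flt3 was listed at 0 in all 24 libraries, and Kit and Ccr7 did not exceed 0.04 and 0.38 TPM. Of 14 cDC1 markers measured, 7 averaged at least 1 TPM: Xcr1 and Clec9a did not exceed 0.26 and 0.08 TPM, while Ppt1 had 72.6 to 111 TPM, Cadm1 57.9 to 72.3 TPM, Naaa 33.9 to 58.7 TPM and Wdfy4 13.6 to 36.2 TPM. Ifi205, counted among the 7, reached 1 TPM only with IFNα, with at most 0.79 TPM with IFNγ and 0.28 TPM in media. Of 10 cDC2 markers 5 averaged at least 1 TPM: Sirpa had 122 to 198 TPM, while Cd209a was listed at 0 and Esam did not exceed 0.08 TPM. Of 7 plasmacytoid markers 2 averaged at least 1 TPM: Cox6a2 had 0.78 to 21.3 TPM and Runx2 2.76 to 5.6 TPM, while Siglech did not exceed 0.1 TPM. Genes shared with macrophages were abundant: all 8 markers in the table averaged at least 1 TPM, summing to 2766 to 3379 TPM with IFNγ, 2502 to 3322 TPM with IFNα and 2655 to 3513 TPM in media. Lymphocyte and stromal lists summed to at most 0.33 and 0.26 TPM. The transcripts of the targeted genes were present in every mutant. Irf1 had 28.1 and 36.0 TPM in DKO, 30.6 and 23.6 TPM in IRF1KO, and 19.7 and 22.5 TPM in WT media libraries, and Irf2 had 20.1 and 20.96 TPM in DKO, 18.2 and 17.4 TPM in IRF2KO, 24.7 and 22.5 TPM in IRF1KO, and 23.4 and 25.2 TPM in WT. Averaged over treatments, Irf2 fell by 0.33 ± 0.06 with IRF2 targeting (SE, limma adjusted p = 0.00101) and Irf1 rose by 0.62 ± 0.07 with IRF1 targeting (adjusted p = 6.11e-05). Against WT within a treatment Irf2 was called in DKO with IFNγ (−0.69 ± 0.14) and in no other mutant or treatment. Genotypes are named here as the libraries are labelled.

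Over the 24 replicated libraries the order of mean levels was Id2, Irf8, Batf3, Irf4 and Zbtb46. Id2, the inhibitor of E proteins, averaged 580 TPM and stood above 98.5% of the gene symbols with a value. Irf8 averaged 143 TPM, but its libraries ran from 45.3 to 391 TPM. Batf3 averaged 57.0 TPM (43.5 to 73.9 TPM), so Irf8 and Batf3 exchanged places between libraries in media and not with IFNγ. Irf4 averaged 2.88 TPM (1.02 to 5.47 TPM). Zbtb46 averaged 1.08 TPM (0.37 to 2.35 TPM) and reached 1 TPM in 13 of 24 libraries, so its ranges and those of Irf4 overlap. Id2 was above Irf8 in every library, and both low factors were below the other 3 in every library.

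Irf8 was the factor that rose strongly with IFNγ, and it did so in all 4 genotypes. With IFNγ it had 261 and 328 TPM in DKO, 258 and 212 TPM in IRF2KO, 298 and 391 TPM in IRF1KO, and 328 and 351 TPM in WT cells. In media it had 60.8 and 56.6 TPM in DKO, 45.3 and 52.0 TPM in IRF2KO, 58.6 and 52.4 TPM in IRF1KO, and 57.0 and 48.5 TPM in WT cells. The lowest IFNγ library was above the highest media library, and no groups overlapped. How many of all genes separate like this was not counted. In bulk RNA, more cells with the transcript and more RNA per cell cannot be told apart. Differences of log2(TPM + 1) were tested with limma over 11842 genes, each p-value being adjusted by Benjamini-Hochberg over all of them within its comparison, and a difference counted as called below an adjusted p of 0.05. The labels do not say that replicates are separate cultures, so every p-value measures the spread between these libraries, which may be technical. The difference in Irf8 was 2.30 ± 0.14 in DKO (SE, adjusted p = 7.05e-08), 2.25 ± 0.14 in IRF2KO (adjusted p = 7.17e-08), 2.60 ± 0.14 in IRF1KO (adjusted p = 1.85e-08) and 2.67 ± 0.14 in WT (adjusted p = 5.72e-09). With the DKO IFNγ and media groups fitted alone the same difference of 2.30 had an adjusted p of 0.0514. Averaged over the genotypes it was 2.45 ± 0.07 (adjusted p = 8.83e-13), or 5.48-fold on this scale, the 26th highest of all genes tested.

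**Figure D1:**
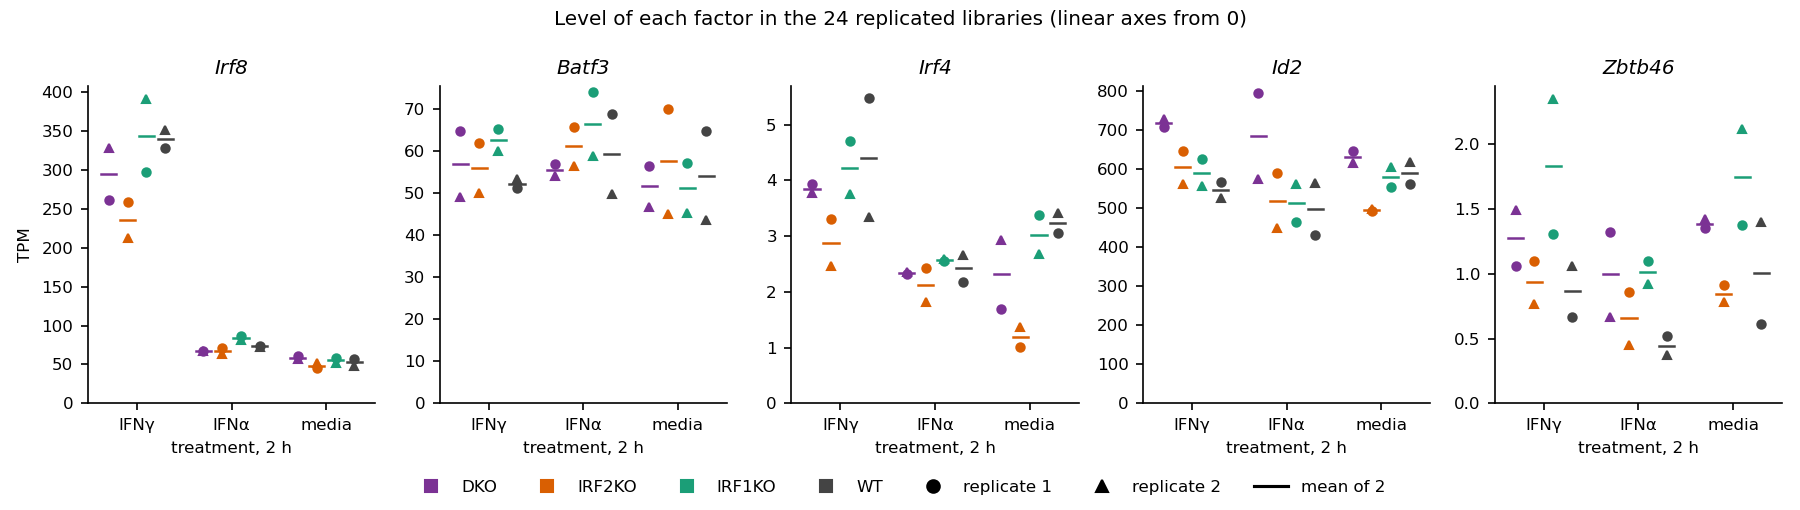
TPM of each factor (vertical, linear from 0, a scale for each panel) by treatment (horizontal), with 1 point a library, colour for genotype, shape for replicate and a bar at the mean of 2. Irf8 lies between 212 and 391 TPM with IFNγ and between 45.3 and 60.8 TPM in media, while the IFNγ and media points of Batf3, Irf4, Id2 and Zbtb46 overlap.

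In each of these comparisons Irf8 was the called member, 1 of 5, against a background of 0.777% of all genes called in DKO, 1.13% in IRF2KO, 1.16% in IRF1KO and 1.26% in WT. Batf3, the AP-1 family partner of IRF8 and IRF4, had 49.1 to 65.2 TPM with IFNγ and 43.5 to 70.1 TPM in media, and its differences ran from −0.02 to 0.30. Batf3 was higher in replicate 1 in 11 of 12 groups, against 6 or 7 of 12 for the other 4 factors. Libraries of 1 replicate number share 1 date-like code in their titles. Over all genes tested, deviations of same-numbered libraries had r over 0.1 for 56 of 66 pairs of groups. How many other genes follow the replicate number as Batf3 does was not counted. Id2 had 525 to 726 TPM with IFNγ and 493 to 644 TPM in media, with differences from −0.11 to 0.28. Zbtb46 had 0.67 to 2.35 TPM with IFNγ and 0.61 to 2.12 TPM in media, with differences from −0.08 to 0.06. None of these 12 differences was called.

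Irf4, the cDC2 member of the pair IRF4 and IRF8, moved in the same direction as Irf8 by a smaller amount. It had 3.93 and 3.77 TPM with IFNγ in DKO, against 1.70 and 2.93 TPM in media, and 3.31 and 2.46 TPM with IFNγ in IRF2KO, against 1.02 and 1.37 TPM in media. In IRF1KO it had 4.71 and 3.75 TPM with IFNγ, against 3.37 and 2.68 TPM in media, and in WT 5.47 and 3.35 TPM with IFNγ, against 3.06 and 3.41 TPM in media. The libraries overlapped in WT and did not in the 3 mutants. With 2 libraries a side such a separation is weak evidence, and its share over all genes was not taken. By genotype the differences were 0.57, 0.82, 0.38 and 0.33 in DKO, IRF2KO, IRF1KO and WT, and none was called. Averaged over genotypes Irf4 rose by 0.52 ± 0.11 (SE, limma adjusted p = 0.00706). In that average 2 of 5 members rose, Irf8 and Irf4, with 4.01% of all genes called. Irf4 is low, so adding 1 to each TPM shrinks its fold.

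The 3 other factors did not pass the test in the average either. The difference was 0.10 ± 0.12 for Batf3, 0.10 ± 0.08 for Id2 and −0.02 ± 0.12 for Zbtb46 (SE, limma adjusted p = 0.893, 0.797 and 0.992). Their 95% intervals ended at 0.34, 0.27 and 0.25, while that of Irf8 began at 2.30.

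**Figure D2:**
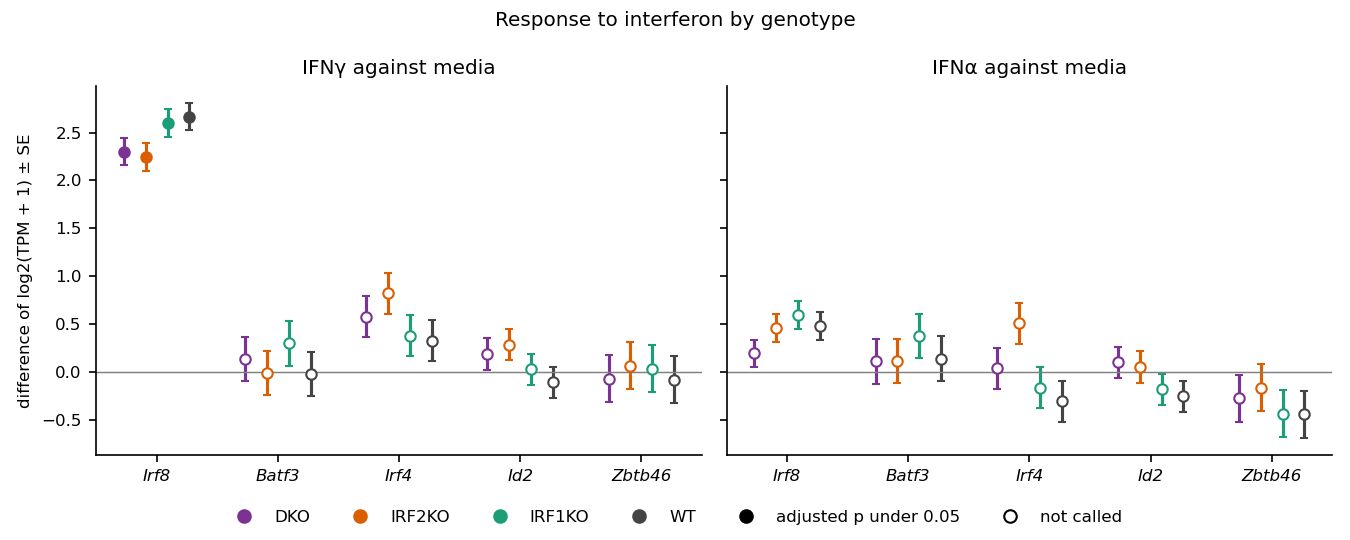
Difference of log2(TPM + 1) from media (vertical, ± SE) for IFNγ and for IFNα in each factor and genotype. With IFNγ the filled, called points of Irf8 lie between 2.25 and 2.67 and all other points between −0.11 and 0.82, and no point is called with IFNα.

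Within a library, Irf8 changed relative to every other factor. The log2 ratio of Irf8 to Batf3 was 2.01 to 2.74 in the 8 IFNγ libraries and −0.63 to 0.27 in the 8 media libraries. Relative to Id2 it was −1.44 to −0.51 with IFNγ and −3.67 to −3.24 in media, so Id2 kept the higher level throughout. The ratio to Irf4, its closest relative in the IRF family, was 5.91 to 6.71 with IFNγ and 3.83 to 5.47 in media. For Zbtb46 it was 7.38 to 8.94 with IFNγ and 4.63 to 6.54 in media. No IFNγ library overlapped a media library in any of the 4 ratios, which share the same Irf8 values and are given without a test.

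**Figure D3:**
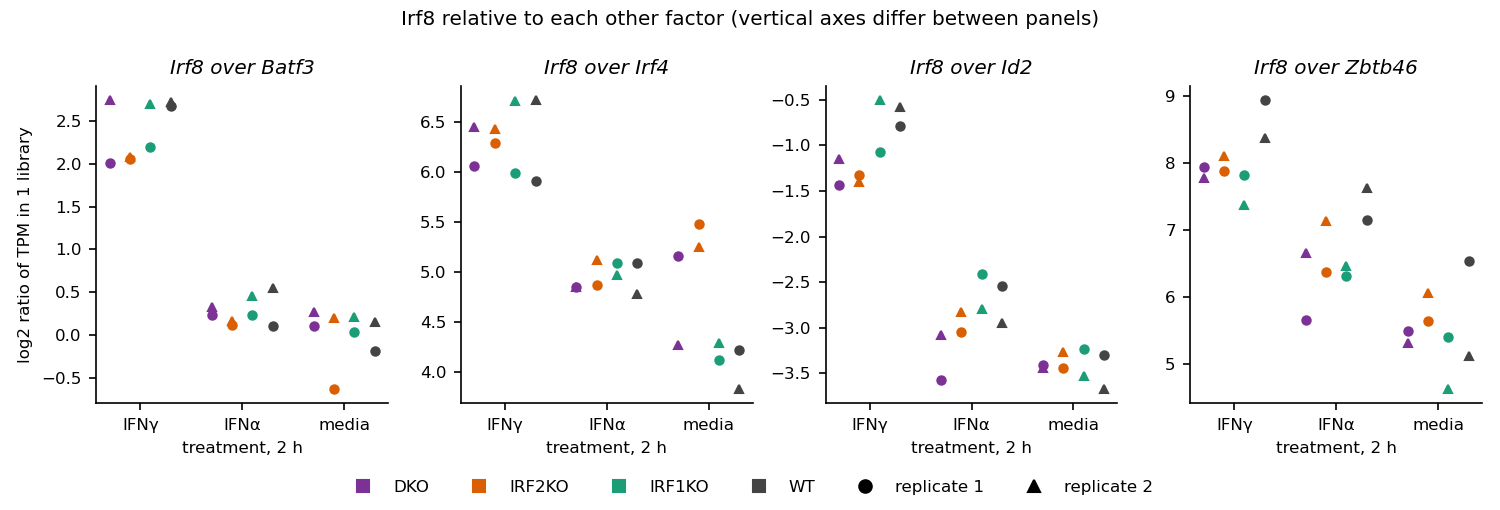
Log2 ratio of the TPM of Irf8 to that of each other factor in the same library (vertical, scales differ) by treatment, with colour for genotype and shape for replicate. In the Batf3 panel the IFNγ libraries lie at 2.01 to 2.74 and the media libraries at −0.63 to 0.27, with the IFNα libraries at 0.11 to 0.55.

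IFNα gave a smaller rise in Irf8. With IFNα Irf8 had 66.7 and 67.6 TPM in DKO, 71.1 and 63.3 TPM in IRF2KO, 87.2 and 81.1 TPM in IRF1KO, and 74.1 and 72.8 TPM in WT cells. These 8 libraries, from 63.3 to 87.2 TPM, were all above the 8 media libraries, the highest of which had 60.8 TPM. The share of all genes separated in this way was not taken. The average difference was 0.43 ± 0.07 (SE, limma adjusted p = 0.00149), or 1.35-fold, and Irf8 was the 1 member of 5 called there, with 2.49% of all genes called. Within a genotype it was 0.19 in DKO, 0.46 in IRF2KO, 0.59 in IRF1KO and 0.48 in WT (± 0.14, SE), and limma called none of the 5 members in any genotype, where 1.01%, 1.39%, 0.819% and 1.04% of all genes were called in that order. Of those 20 member tests 4 had an unadjusted p under 0.05. With TMM scaling the IRF1KO difference in Irf8 was 0.65 and was called.

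Irf4 showed no common direction with IFNα: its difference was 0.51 ± 0.21 in IRF2KO and 0.03 ± 0.21 in DKO, and −0.17 ± 0.21 in IRF1KO and −0.31 ± 0.21 in WT (SE). Zbtb46 had 0.37 to 1.32 TPM with IFNα and 0.61 to 2.12 TPM in media, and its 4 differences lay between −0.45 and −0.17. Their average of −0.33 ± 0.12 did not pass the test (limma adjusted p = 0.299). Batf3 and Id2 averaged 0.18 ± 0.12 and −0.07 ± 0.08 (adjusted p = 0.722 and 0.89). The direct comparison of the interferons set IFNγ above IFNα for Irf8 in every genotype, by 2.11 in DKO, 1.79 in IRF2KO, 2.01 in IRF1KO and 2.19 in WT (± 0.14, SE), each called. It was again 1 of 5 members, with 0.904%, 0.819%, 0.946% and 0.768% of all genes called. With its groups fitted alone the IRF2KO difference had an adjusted p of 0.0806.

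No member passed the test between a mutant and WT within 1 treatment. The background of genes called against WT in media was 0.760% for DKO, 0.836% for IRF2KO and 0% for IRF1KO, where limma called no gene and 305 had an unadjusted p under 0.05. With IFNα it was 1.05% for DKO, 0.971% for IRF2KO and 0.177% for IRF1KO, and with IFNγ 1.31%, 0.802% and 0.236% in the same order. Of the 45 member tests 6 had an unadjusted p under 0.05. Irf8 with IFNγ was lower in both IRF2KO libraries than in either WT library, by 0.53 ± 0.14 in the mean (SE, limma adjusted p = 0.142). The difference was −0.21 in DKO and 0.01 in IRF1KO with IFNγ. Irf4 in media was lower in both IRF2KO libraries than in either WT library, at 1.02 and 1.37 TPM against 3.06 and 3.41 TPM. That difference of −0.95 ± 0.21 just missed the threshold (limma adjusted p = 0.0523) and was called in the paired fit with the replicate block (adjusted p = 0.032). It was also called with a pseudocount of 0.1, TMM scaling or robust variances.

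Id2 had its highest group mean in DKO under each treatment. It had 707 and 726 TPM in DKO with IFNγ, against 567 and 525 TPM in WT, and 793 and 573 TPM in DKO with IFNα, against 431 and 563 TPM in WT. Both DKO libraries were above both WT libraries under each interferon, and the groups overlapped in media. The differences of 0.39 ± 0.16 and 0.45 ± 0.16 were not called (SE, limma adjusted p = 0.462 and 0.353). With so few libraries a group, the separation under each interferon is weak evidence, and its share over all genes was not taken.

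**Figure D4:**
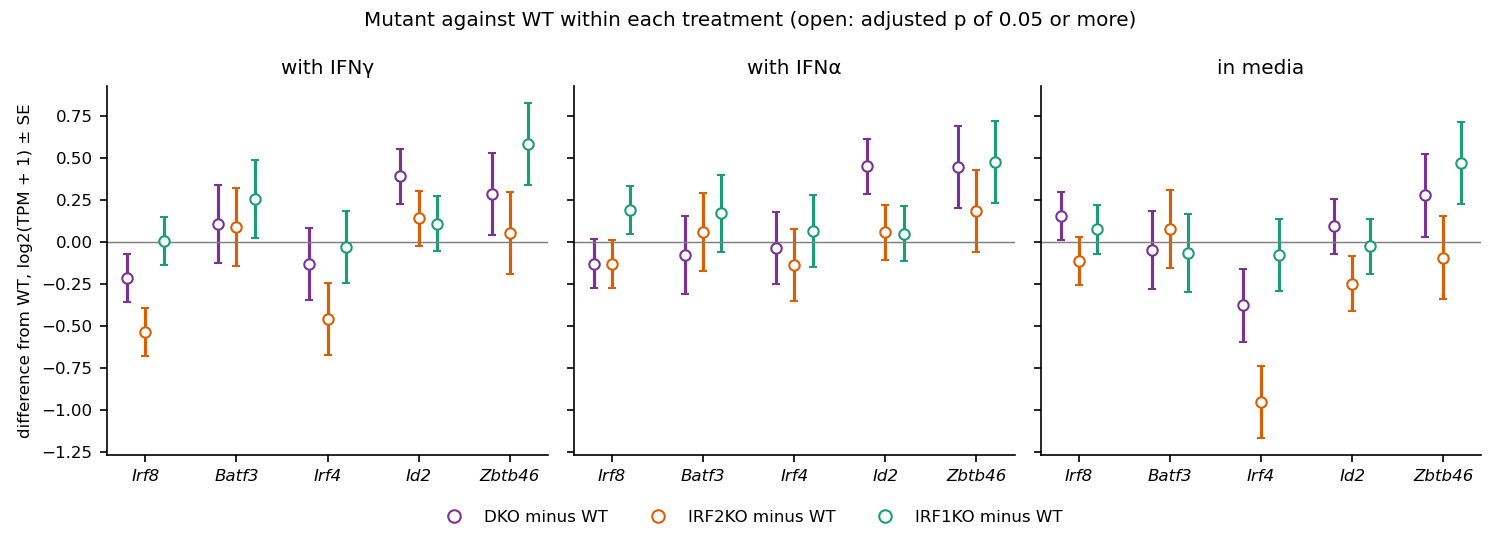
Difference of log2(TPM + 1) between each mutant and WT (vertical, ± SE) within IFNγ, IFNα and media. All points are open, since none passed an adjusted p of 0.05, and the lowest is Irf4 in IRF2KO in media at −0.95.

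Averaged over treatments, 2 of 5 members fell with IRF2 targeting (DKO and IRF2KO against IRF1KO and WT), where 13% of all genes were called, so many genes differ between these lines. Irf4 fell by 0.34 ± 0.09 (SE, limma adjusted p = 0.0176), with 1.02 to 3.93 TPM in the 12 IRF2-targeted libraries and 2.18 to 5.47 TPM in the 12 others. Against WT the Irf4 difference was smaller in DKO than in IRF2KO under each treatment. It was −0.13 in DKO and −0.46 in IRF2KO with IFNγ, −0.03 and −0.13 with IFNα, and −0.38 and −0.95 in media. DKO and WT libraries overlapped with each interferon. Irf8 fell by 0.21 ± 0.06 (adjusted p = 0.0307), with 45.3 to 328 TPM in the IRF2-targeted libraries and 48.5 to 391 TPM in the others. The call for Irf8 was lost when any of 11 libraries was left out, with differences of −0.20 to −0.17. Id2 averaged 0.13 ± 0.07, Zbtb46 −0.06 ± 0.10 and Batf3 −0.02 ± 0.09, none called. IRF1 targeting (DKO and IRF1KO against IRF2KO and WT) called no member, with 1.06% of all genes called. Zbtb46 came nearest, at 0.40 ± 0.10 (limma adjusted p = 0.0963), with 0.67 to 2.35 TPM in the 12 IRF1-targeted libraries and 0.37 to 1.40 TPM in the 12 others. These averages set 2 lines against 2 lines, and a difference between lines that has nothing to do with the targeted gene cannot be told apart from one that has.

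The size of the IFNγ response of Irf8 was compared directly between genotypes. Its response in DKO was lower than in WT by 0.37 ± 0.20, in IRF2KO by 0.42 ± 0.20 and in IRF1KO by 0.07 ± 0.20, and none of the 5 members was called in these interactions, where limma called 0.0929%, 0.0338% and 0.0844% of all genes. Of the 15 member tests 0 had an unadjusted p under 0.05. In a contrast chosen after seeing the data, the response with IRF2 targeted minus that without was −0.36 ± 0.14 (limma adjusted p = 1, 0.0253% of all genes called), with a 95% interval from −0.67 to −0.05 before adjustment. A smaller Irf8 response in IRF2-targeted lines was therefore not called here, and an equal one was not shown. The IFNα responses were compared in contrasts also chosen after seeing the data, where limma called no member and 0.0844%, 0.0676% and 0.0253% of all genes in DKO, IRF2KO and IRF1KO against WT. For Irf8 these differences were −0.28, −0.02 and 0.12 (± 0.20, SE). The Irf4 response to IFNα in IRF2KO was above that in WT by 0.82 ± 0.30 (adjusted p = 0.914), while the median of all genes in that contrast was 0.14. With TMM scaling that median was 0.02 and the Irf4 difference 0.73.

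Other genes of these pathways are given by list, with all list counts over the averaged comparisons. Over all 11842 genes 350 rose and 125 fell with IFNγ (4.01% called), 242 rose and 53 fell with IFNα (2.49%), and 851 rose and 688 fell with IRF2 targeting (13%). Of 14 genes of IFNγ signalling 8 rose with IFNγ, with a median of 1.24 over the list and −0.02 over all genes. Irf1, an interferon-induced transcription factor, rose by 4.32 ± 0.09, Irf9, the DNA-binding part of ISGF3, by 2.46 ± 0.07, and Stat3 by 1.58 ± 0.07 (SE). Of 11 other dendritic cell factors that passed the filter on low values, out of 17 in the list, 3 rose. These were Bcl6, a repressor that serves cDC1 cells, at 1.72 ± 0.11, Prdm1, which encodes BLIMP1, at 0.90 ± 0.20, and Nfil3, which acts early in the cDC1 lineage, at 0.45 ± 0.11. Bcl6 alone among them was called in each genotype. Prdm1 had 1.13 to 4.16 TPM with IFNγ and 0.17 to 1.14 TPM in media, where its median was 0.395 TPM. It lay near the filter on low values, which its IFNγ libraries alone would pass, so its rise is weak evidence. Spi1, which encodes the myeloid factor PU.1, did not pass, at 0.00 ± 0.20 (255 to 513 TPM over the 24 libraries). Bcl11a, a plasmacytoid cell factor, was listed at 0 throughout.

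Of 7 AP-1 genes, the group from which BATF3 takes its partners, 2 rose with IFNγ, where 350 of 11842 genes did. Batf2, a close relative of Batf3 that can stand in for it in mice, had 3.64 to 8.57 TPM with IFNγ. In media it had 0 to 0.09 TPM, a difference of 2.66 ± 0.16 (SE). With IFNα, at 0.11 to 2.13 TPM, Batf2 rose by 0.99 ± 0.16. It reached 1 TPM only with interferon, so it passed the filter on low values through those libraries. Its rise and its place in the count are therefore no evidence about AP-1 genes. Fos rose by 1.25 ± 0.28 with IFNγ, and Jun, a partner of BATF3, did not pass, at 0.26 ± 0.14. Of the 5 E protein and Id genes beside Id2, 1 fell: Tcf12, an E protein, by 0.38 ± 0.05 with IFNγ and by 0.35 ± 0.05 with IFNα. Tcf4 differed by −0.08 ± 0.08 with IFNγ and was not called. Of 6 other IRF genes tested 3 rose with IFNγ, namely Irf1, Irf9 and Irf7, the last at 0.71 ± 0.11, while with IFNα Irf7, a factor of type I interferon production, rose by 4.54 ± 0.11. In media Irf7 had 0.09 to 0.96 TPM, so it too passed the filter through interferon libraries. The rises of Irf7 are likewise no evidence about the IRF genes as a list.

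Markers of dendritic cell subsets and macrophages were counted in the same way, against 4.01% of all genes called with IFNγ, 2.49% with IFNα and 13% with IRF2 targeting, where 688 of 11842 fell. With IFNγ, 1 of 8 cDC1 genes tested fell (Naaa, −0.29 ± 0.07, SE), and 1 of 3 plasmacytoid genes rose (Pacsin1, 0.53 ± 0.12). Pacsin1 had 0.09 to 1.32 TPM with IFNγ, at most 0.66 TPM with IFNα and at most 0.32 TPM in media. It passed the filter on low values only through its IFNγ libraries, so its rise is no evidence about plasmacytoid genes. Of the cDC2 genes 0 of 6, and of the general dendritic cell genes 0 of 6, were called by limma or had an unadjusted p under 0.05. Among the macrophage markers Fcgr1, a high-affinity IgG receptor, rose by 0.33 ± 0.05 and Mertk, a receptor for dying cells, fell by 0.78 ± 0.12. With IFNα 2 of 8 cDC1 genes rose, namely Ifi205, an interferon-inducible gene, by 2.15 ± 0.20 and Tlr3, a sensor of double-stranded RNA, by 0.87 ± 0.10. Ifi205 had 1.74 to 7.32 TPM with IFNα, at most 0.79 TPM with IFNγ and at most 0.28 TPM in media. It passed the filter only through its IFNα libraries, so its rise is no evidence about cDC1 markers. Fcgr1 rose by 0.64 ± 0.05 with IFNα and was called in each genotype. With IRF2 targeting 4 of 6 cDC2 genes fell, namely Mgl2 (−0.81 ± 0.06), Clec10a (−0.63 ± 0.10), Clec4a2 (−0.32 ± 0.07) and Sirpa (−0.24 ± 0.05). Of 8 cDC1 genes 3 fell, namely Tlr3 (−1.51 ± 0.08), Cd24a (−0.996 ± 0.10) and Ly75 (−0.47 ± 0.09), and Ppt1 rose (0.16 ± 0.05). Tlr3 also fell with IRF1 targeting (−0.65 ± 0.08). With IRF2 targeting 1 of 6 general dendritic cell genes fell (Itgax, by 0.60 ± 0.05), as did 1 of 8 macrophage genes (Lyz2, by 0.35 ± 0.05). Cox6a2 fell too, as the 1 of 3 plasmacytoid genes called. Among the other dendritic cell factors Ikzf1, the lymphoid and myeloid factor Ikaros, fell by 0.32 ± 0.06, Zeb2, a factor of plasmacytoid and cDC2 cells, fell by 0.22 ± 0.07, and Runx3 rose by 0.45 ± 0.09 with IRF2 targeting. Whether the lower Irf4 level has a part in the marker differences was not tested.

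The genes whose log2(TPM + 1) followed Irf8 most closely over the 24 libraries, among 8826 genes with a mean of at least 5 TPM, were Icam1 (r = 0.977), Tubb3 (r = 0.971), Fam102a (r = 0.959) and Enc1 (r = 0.952). All 4 rose with IFNγ, by 1.63 ± 0.06 for Icam1, an adhesion molecule, 4.46 ± 0.14 for Tubb3, a tubulin, 1.13 ± 0.07 for Fam102a and 2.40 ± 0.12 for Enc1 (SE). Icam1 was the 1 of these called with IFNα, at 0.47 ± 0.06. The other factors had weaker neighbours. Those of Batf3 were Gpatch4, N6amt1, Cst3 and Bax (r = 0.759 to 0.781), those of Irf4 Atp7a, Cttnbp2nl, Paf1 and Ints5 (r = 0.827 to 0.849), those of Id2 Snapc1, Orc4, Gpd2 and Ube2j1 (r = 0.809 to 0.850), and those of Zbtb46 Tbc1d10b, Zbtb45, Ercc6l2 and Mri1 (r = 0.729 to 0.751). These r values describe libraries that share treatments and lines and were not tested.

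The 6 single libraries show the same factors under LPS, a bacterial ligand of TLR4, and were quantified against another transcript set, so their levels are not set beside those above. Id2 stood out. It had 333 TPM in IRF2KO with LPS, against 1420 TPM at 0 h, and 281 TPM in WT with LPS, against 1301 TPM at 0 h. The differences of −2.09 in IRF2KO and −2.21 in WT were each the 11th lowest of 10666 genes, where 1.92% and 0.966% of genes were at least 2-fold lower. With IFNα Id2 had 1344 TPM in IRF2KO and 1039 TPM in WT. There is no replicate and no test for any of these values.

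Irf8 in the single libraries was highest with IFNα. It had 69.9 TPM in IRF2KO with IFNα, against 44.2 TPM at 0 h, and 79.1 TPM in WT with IFNα, against 31.0 TPM at 0 h, which are differences of 0.65 and 1.32. The WT value was past 2-fold, as for 1.64% of genes, and the IRF2KO value was not, where 1.82% of genes were. The 0 h libraries themselves differed by 0.50, with IRF2KO the higher. With LPS Irf8 had 36.3 TPM in IRF2KO and 35.0 TPM in WT. Batf3 had 81.2 TPM in IRF2KO with LPS, against 57.1 TPM at 0 h, and 56.6 TPM in WT with LPS, against 36.5 TPM at 0 h, which are differences of 0.50 and 0.62. Irf4 had 2.60 TPM in IRF2KO and 2.58 TPM in WT with LPS, 3.29 and 1.78 TPM with IFNα, and 2.79 and 2.19 TPM at 0 h. The IRF2KO library was thus never the lower for Irf4, unlike the average over the replicated IRF2-targeted libraries. Zbtb46 lay between 0.49 and 1.30 TPM over the 6 libraries.

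**Figure D5:**
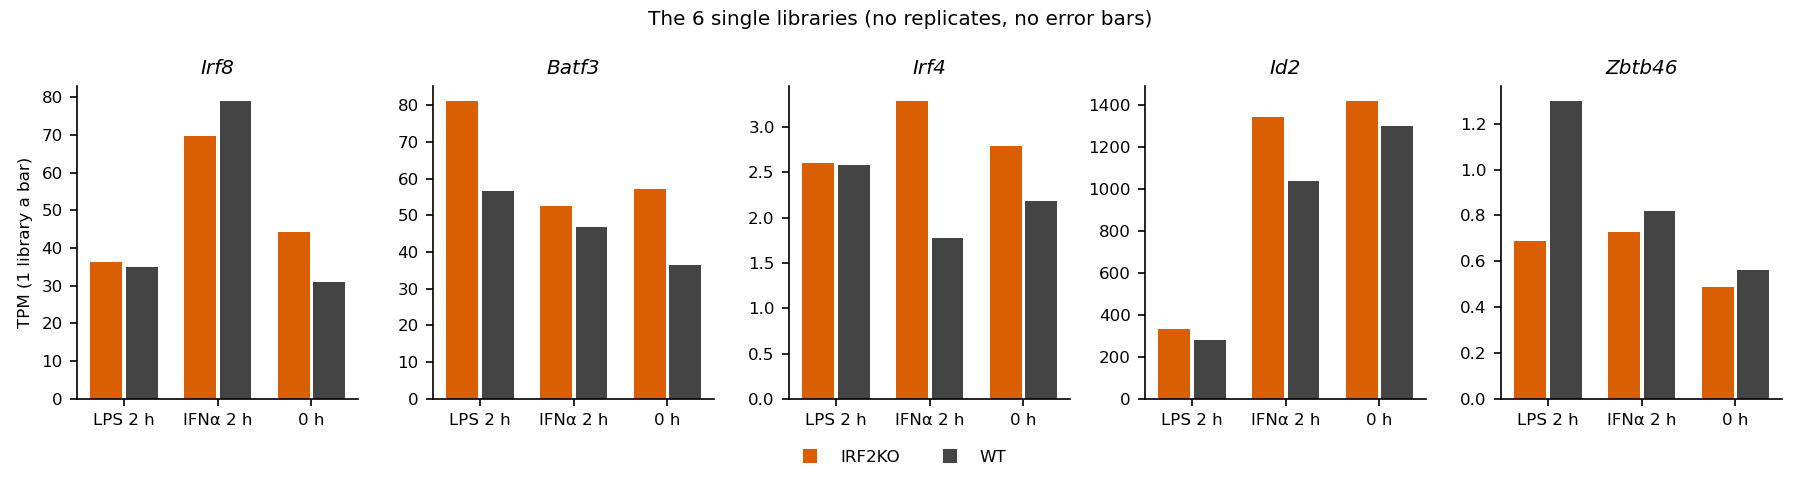
TPM of each factor in the 6 single libraries (vertical, linear from 0) with LPS, with IFNα and at 0 h, 1 bar a library with no error. The Id2 bars with LPS, at 333 TPM in IRF2KO and 281 TPM in WT, are the lowest of that panel.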

How the data were processed

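A table deposited by the authors gives TPM values for all 30 libraries. Per the submitters' processing notes bcl2fastq 2.20, Bowtie 0.12.2, RSEM and the builds mm10 and GRCm38 were used, with no role given for either build. TPM keeps no read totals, so models for counts do not apply, and no interval for counting error or detection floor is given. Entries of a symbol were summed within the 24 replicated and, separately, the 6 single libraries. Log2(TPM + 1) values of the 11842 genes reaching 1 TPM in 2 or more of the 24 libraries were modelled with limma 3.58.1 (R 4.3.3), a trended prior variance and 12 group means, which leaves 12 residual degrees of freedom. The 12 groups share 1 variance. Tests were two-sided, with Benjamini-Hochberg adjustment inside each of the 32 comparisons, of which 4 between responses were added after seeing the data. The fit was tested on simulated data. All 5 members passed the filter. The members and lists were chosen with earlier results of these data known.

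As alternatives the pseudocount was set to 0.1 or 5, the filter was dropped or raised to a mean of 5 TPM, values were scaled by an unweighted trimmed mean of M values (TMM) or by quantiles, variances were made robust, the replicate number entered as a replicate block, the compared groups were fitted alone, and 1 library was left out at a time. The replicate numbers were taken to pair the samples because a number goes with 1 date-like code in all titles. Between groups, the deviations of same-numbered libraries had r over 0.1 for 56 of 66 pairs (median 0.233, −0.16 to 0.481). Named genes are the 5 members, the 4 genes of highest Pearson r with each, up to 4 called genes of a list by smallest p, and Irf1, Irf2, Spi1, Jun and Tcf4 in any case. A further gene that the rule names is not reported here. Promoter windows are RefSeq's, and genes were located in GENCODE M21. Python 3.11.15, numpy 2.4.6, pandas 2.3.3 and matplotlib 3.10.9 were used for the rest.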

Additional observations from a re-analysis of the deposited data

Results flagged for a closer look

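In the single libraries 4 responses had opposite signs in the IRF2KO and WT lines, each resting on 1 library a group, and none of these differences between lines was tested. Irf8 with LPS differed from 0 h by −0.27 in IRF2KO and 0.17 in WT on the log2(TPM + 1) scale, which is −0.45 between the lines. Batf3 with IFNα differed by −0.12 in IRF2KO and 0.35 in WT, which is −0.47 between them. Irf4 with LPS differed by −0.07 in IRF2KO and 0.17 in WT, a gap of −0.24, at levels of 2.60 and 2.58 TPM. Irf4 with IFNα differed by 0.18 in IRF2KO and −0.20 in WT, a gap of 0.38. In the replicated libraries Irf4 with IFNα also differed upward in IRF2KO (0.51) and downward in WT (−0.31), without a call in either, and the direct test of that difference between the lines (0.82 ± 0.30, limma adjusted p = 0.914) was not called. The starting levels were ordered differently. In media the replicated IRF2KO libraries were below WT (1.02 and 1.37 against 3.06 and 3.41 TPM). At 0 h the single IRF2KO library was above WT (2.79 against 2.19 TPM).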

How the results depend on the processing

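Of 1299 alternative values for 74 tested results, 1220 kept their direction and their side of the threshold, 13 lost a call, 7 gained one and 59 changed sign, counting any crossing of 0. With the compared groups alone Irf8 kept its size but not its call for IFNγ against media in DKO (2.30, adjusted p = 0.0514) and for IFNγ against IFNα in IRF2KO (1.79, adjusted p = 0.0806), where fewer libraries enter the fit. TMM scaling added the IFNα call for Irf8 in IRF1KO (0.65). Irf4 in IRF2KO against WT in media was called with a pseudocount of 0.1 (−1.38), TMM scaling (−0.92), robust variances (−0.95) and the replicate block (−0.95, adjusted p = 0.032), and in none of 4 fits without 1 of its libraries (−1.07 to −0.84). The replicate block changed no other call among the 74. With 1 library left out, Irf8 under IRF2 targeting ran from −0.24 to −0.17 and lost its call without DKO IFNα replicate 1, IFNγ replicate 1 or media replicate 2, IRF1KO IFNα replicate 1, IFNγ replicate 2 or media replicate 1, IRF2KO IFNα replicate 2, IFNγ replicate 2 or media replicate 1, or WT IFNγ replicate 2 or media replicate 1. Zbtb46 under IRF1 targeting ran from 0.35 to 0.45 and was called without IRF1KO IFNγ replicate 1 or WT media replicate 2. Every sign change fell on a difference that was not called. With 1 library left out, Irf8 ran from −0.23 to 0.0017 in IRF2KO against WT in media, −0.0389 to 0.19 in IRF1KO against WT in media and −0.19 to 0.20 in IRF1KO against WT with IFNγ (−0.0092 with TMM and −0.0071 with quantile scaling), and from −0.26 to 0.13 and −0.13 to 0.10 in the IFNγ response of IRF1KO and the IFNα response of IRF2KO minus WT. Batf3 with IFNγ ran from −0.063 to 0.33 in DKO, −0.33 to 0.30 in IRF2KO and −0.31 to 0.26 in WT, from −0.0771 to 0.0271 under IRF2 targeting and from −0.0327 to 0.0716 under IRF1 targeting (−0.0132 with TMM and −0.0050 with quantile scaling). Irf4 ran from −0.13 to 0.0686 in DKO and −0.27 to 0.0078 in IRF2KO against WT with IFNα, −0.42 to 0.16 in DKO against WT with IFNγ and −0.0515 to 0.0839 with IFNα averaged (−0.0057 with a pseudocount of 5). Id2 with IFNγ in IRF1KO ran from −0.0594 to 0.11. Zbtb46 with IFNγ ran from −0.21 to 0.0623 in DKO, −0.059 to 0.19 in IRF2KO, −0.24 to 0.30 in IRF1KO (−0.0366 with quantile scaling), −0.37 to 0.20 in WT and −0.088 to 0.056 averaged. The cause was not tested. Irf8 with IFNγ against media ran from 2.11 to 2.80 over all genotypes and omissions and was called in all of these fits. Of the 4 genes most like Irf8, 2 were still among the first 4 by group means and 1 by Spearman's rho, and 0 or 1 for each other factor. TPM gives no depth, so how far counting error limits Irf4 and Zbtb46 is not known.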
